A study of Mus musculus with 2 samples.

Results

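The cycling precursors described here are 144 of the 6905 cell barcodes in a droplet-based single-cell RNA data set of adipocyte precursors from mouse pups. They were chosen by their RNA counts. A cell entered when it had at least 500 genes and at most 10% mitochondrial molecules, no molecule of the endothelial genes Cdh5 and Cldn5 or of the macrophage genes C1qa and C1qb, and at least 2 molecules in all of Mki67 and Top2a. A molecule is counted once through its unique molecular identifier (UMI). Of the 6905 barcodes, 6885 passed the quality limits and 5213 of these also had none of the 4 endothelial and macrophage genes. The cycling cells were set against 4114 comparison cells from the same 5213 that had no UMI of Mki67, Top2a, Rrm2 or Tyms. A further 955 cells met neither definition and entered neither sum.

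The study took wild-type pups, cross-fostered onto dams whose milk fat was high or low in its n-6/n-3 PUFA ratio (PUFA, polyunsaturated fatty acid). At 12 days of age the whole subcutaneous adipose tissue was digested, and 3000 flow-sorted living precursor cells per condition were put on the 10x Genomics 3′ V2 system, with 1 sample in each of the 2 conditions. The labels call the cells fresh and also describe freezing, thawing and removal of permeable cells, and do not say how many pups gave the cells. The matrix holds 2 libraries, told apart by a barcode suffix, and the labels do not say which suffix belongs to which milk. The libraries are therefore called library 1 and library 2, no diet comparison was made, and there is no replicate of a condition and no test. Intervals are exact 95% intervals that cover counting error only, since cells and transcripts of 1 library are not independent replicates.

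White adipose tissue grows in early life partly through division of its precursors, fibroblast-like cells that carry Pdgfra, Cd34 and Ly6a and secrete fibrillar collagen. Current models order them from an interstitial progenitor marked by Dpp4 and Pi16 to a committed preadipocyte marked by Icam1 and Lpl, with another population marked by F3 that regulates adipogenesis. A dividing cell first makes replication enzymes in S phase and then, in G2 and mitosis, the kinases, cyclins and spindle proteins that part the chromosomes. Mki67 encodes the Ki-67 protein that coats mitotic chromosomes, and Top2a encodes the topoisomerase that untangles sister DNA, so both are read mainly from late S phase to mitosis. The question asked was which identity genes of precursors the dividing cells keep.

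The cycling cells were 56 of 2359 filtered cells in library 1, or 2.37% (1.80 to 3.07), and 88 of 2854 in library 2, or 3.08% (2.48 to 3.79). These intervals overlap, and over both libraries the share was 2.76% (2.33 to 3.24). The cycling cells were deeper than the comparison cells. Their median was 15643 UMIs and 3627 genes, against 11987 UMIs and 2851 genes. By library the medians were 14387.5 and 16016.5 UMIs in cycling cells and 12405 and 11695 in comparison cells, while the mitochondrial share was near the same, 1.81% and 1.75%. A deeper cell has more chance to show 2 UMIs. With cells thinned to 6900 UMIs the share was 2.07%. Shallower cells, among them 9 cycling and 477 comparison cells, were left out of that share. In all, 17 barcode sequences occurred in both libraries, and 2 of the cycling cells had such a barcode.

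Within the cycling cells, 98 had UMIs of both Mki67 and Top2a, 33 of Top2a alone and 13 of Mki67 alone. Their sum had a median of 6 UMIs and a maximum of 30. The edge of the definition is populated: 40 cells sat at exactly 2 UMIs and 18 at 3, while 399 cells just outside it had 1. The members with 4 to 9 UMIs were 29 and those with 10 or more were 57.

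The 3 markers that did not choose the cells followed the 2 that did. Cdk1, the kinase that drives entry into mitosis, was seen in 4.26% of the cells with 1 gate UMI (2.50 to 6.73), 25.0% of those with 2, 50% of those with 3, 82.8% of those with 4 to 9 and 98.2% of those with 10 or more. Ube2c, the ubiquitin-conjugating enzyme of the anaphase-promoting complex, went from 7.27% at 1 UMI to 30.0% at 2 and 94.7% at 10 or more. Birc5, which encodes survivin of the chromosomal passenger complex, went from 13% to 42.5% and 100% in the same bins. In cells with no gate UMI the 3 shares were 4.09% (3.54 to 4.70), 6.72% (6.02 to 7.48) and 7.62% (6.88 to 8.42). Cells with 1 gate UMI thus lay close to these for Cdk1 and Ube2c and above for Birc5, at 13% (9.89 to 16.7). All 3 genes were found in 74 of the 144 cycling cells and none of them in 19. The label of dividing cells is thus carried by other markers most fully in the 86 members with 4 or more gate UMIs.

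**Figure D1:**
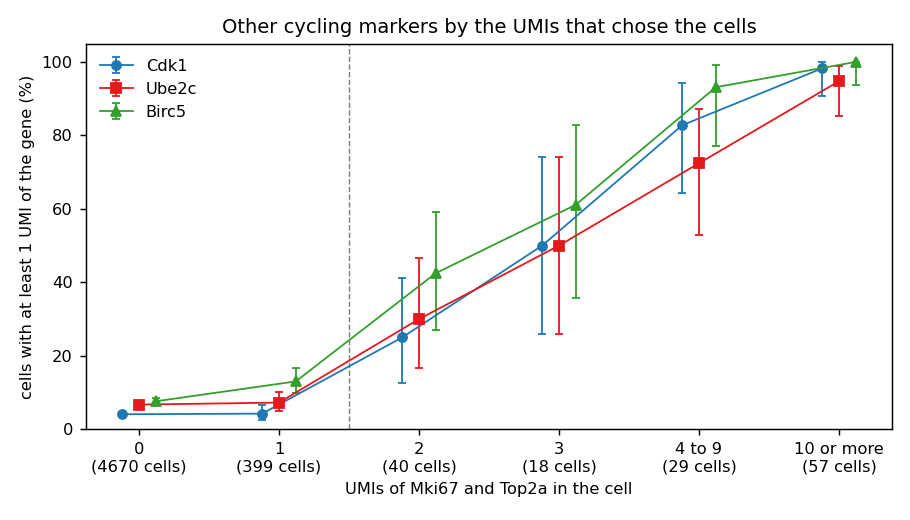
Share of cells (%, vertical axis) with at least 1 UMI of Cdk1, Ube2c or Birc5 by the number of Mki67 and Top2a UMIs in the cell (horizontal axis, number of cells in brackets), with exact 95% intervals and a dashed line at the edge of the definition. The shares are 13% or less to the left of the line and reach 94.7% or more at 10 or more UMIs.

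The promoters of the 5 marker genes are shown because the genes stand high together in the same cells. Each run holds the 150 bases before the RefSeq start on the strand of the gene, in build GRCm38.p6. Capitals mark TTTGAA, the cell cycle gene homology element (CHR), CCAAT, and the E2F letters TTTCGCGC, each on either strand.
Mki67 (chr7:135716380-135716529, minus strand): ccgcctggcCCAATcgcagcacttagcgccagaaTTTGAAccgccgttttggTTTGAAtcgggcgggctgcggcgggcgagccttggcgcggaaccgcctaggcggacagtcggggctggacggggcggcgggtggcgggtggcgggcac
Top2a (chr11:99024190-99024339, minus strand): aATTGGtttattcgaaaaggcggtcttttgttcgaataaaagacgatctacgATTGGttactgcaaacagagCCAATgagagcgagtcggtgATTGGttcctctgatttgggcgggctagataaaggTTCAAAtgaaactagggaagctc
Cdk1 (chr10:69352913-69353062, minus strand): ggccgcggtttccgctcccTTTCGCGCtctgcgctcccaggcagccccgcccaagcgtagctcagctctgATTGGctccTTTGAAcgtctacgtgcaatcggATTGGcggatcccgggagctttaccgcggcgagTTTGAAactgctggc
Ube2c (chr2:164769779-164769928, plus strand): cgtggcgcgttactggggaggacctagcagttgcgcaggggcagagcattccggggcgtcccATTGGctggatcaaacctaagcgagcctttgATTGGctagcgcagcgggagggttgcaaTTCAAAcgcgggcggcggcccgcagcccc
Birc5 (chr11:117849087-117849236, plus strand): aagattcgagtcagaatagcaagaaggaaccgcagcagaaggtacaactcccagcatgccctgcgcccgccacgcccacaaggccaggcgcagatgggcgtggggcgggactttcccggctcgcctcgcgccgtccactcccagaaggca

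The runs of Mki67, Top2a, Cdk1 and Ube2c hold both a CHR and a CCAAT, and the run of Birc5 holds neither. In 250 bases before the start, 13 of the 50 genes of the G2 and mitosis list that were higher in cycling cells and have a RefSeq promoter (26%) held both, as did 5.73% of 27025 promoters and 3.86% of the 5705 promoters of genes measured here. CCAAT, with or without CHR, was in 36 of the 50 (72.0%), in 34.5% of all promoters and in 37.2% of those of measured genes. CHR, with or without CCAAT, was in 14 (28.0%), in 16.3% and in 9.89%, and in 4 of 20 promoters of the shared mesenchymal list. The E2F letters TTTGGCGC or TTTCGCGC were in 4 of 34 higher S phase genes (11.8%), in 1 of the 50 (2.0%), in 0.673% of all promoters and in 1.60% of those of measured genes. A match is a description of these letters and not of a bound site, and no match says only that the letters are not in the window.

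Levels were compared as counts per 1000000 UMIs (CPM) in the summed cells of each library. Among 7411 genes with at least 10 CPM in cycling or comparison cells, 772 (10.4%) were at least 1.5-fold higher in cycling cells in both libraries, 94 (1.27%) were at least 1.5-fold lower in both and 5193 (70.1%) lay within 1.5-fold in both. The last group is called kept, and a gene in none of the 3 groups is called mixed. The minimum applies to the larger level, so a gene under 10 CPM in 1 kind of cell was measured through the other alone. The higher count includes Mki67, Top2a, Rrm2 and Tyms, which are at 0 in the comparison cells by the rule and get no fold. Over all genes the median log2 ratio was 0.10, and with edgeR's TMM scaling it was -0.04, with 585 genes higher and 205 lower. Log2 ratios have 1 CPM added to each side, and since the same counts chose the cells they describe these libraries and test nothing.

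Replication and mitosis genes were higher nearly without exception, which the choice of cells and the level minimum make likely. In comparison cells, 37 genes of the S phase list and 59 of the G2 and mitosis list were under 10 CPM. Those of them that were measured passed the minimum through the cycling cells alone. Of the 41 measured genes of the S phase list outside the rule, 41 were higher, with a median log2 ratio of 2.41. Of 65 G2 and mitosis genes, 64 were higher, with a median of 4.17. The exception was Pttg1, the securin that guards chromatid cohesion, at 42.6 and 32.0 CPM in cycling cells of libraries 1 and 2 and 36.9 and 39.0 in comparison cells.

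Ccna2, the cyclin of S phase and G2, stood at 142 and 157 CPM in cycling cells and at 2.12 and 2.23 CPM in comparison cells, a fold of 69.8 (55.9 to 87.7). Ccnb1, the cyclin that activates Cdk1, was at 74.2 and 82.9 CPM against 0.839 and 1.25. The histone gene Hist1h2ap, whose RNA is made with DNA in S phase, was at 517 and 607 CPM against 1.94 and 4.88. For all 3 genes both libraries of cycling cells lay far above both of comparison cells. Most replication-dependent histone RNA lacks a poly(A) tail, so the levels of histone genes in a library primed on poly(A) are not those of all their RNA. Stmn1, which takes apart microtubules, was at 703 and 742 CPM against 23.1 and 30.1, and Hmgb2, a chromatin protein of dividing cells, at 534 and 469 CPM against 30.3 and 30.6.

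Higher genes outside the cycle lists included further cell division genes, below the antigen presentation genes Cd74, H2-Aa and H2-Ab1 that are described with the other cell types. Mxd3, a Myc network factor, was at 77.9 and 69.0 CPM in cycling cells and 1.32 and 1.64 in comparison cells. Cenpm and Cenpw, which belong to the inner kinetochore, stood at 82.7 and 114 CPM and at 80.3 and 86.4 CPM in cycling cells, against 5.24 CPM or less in comparison cells. Cdkn3, a phosphatase of cyclin-dependent kinases, was at 57.2 and 57.1 CPM against 1.24 and 1.64.

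**Figure D2:**
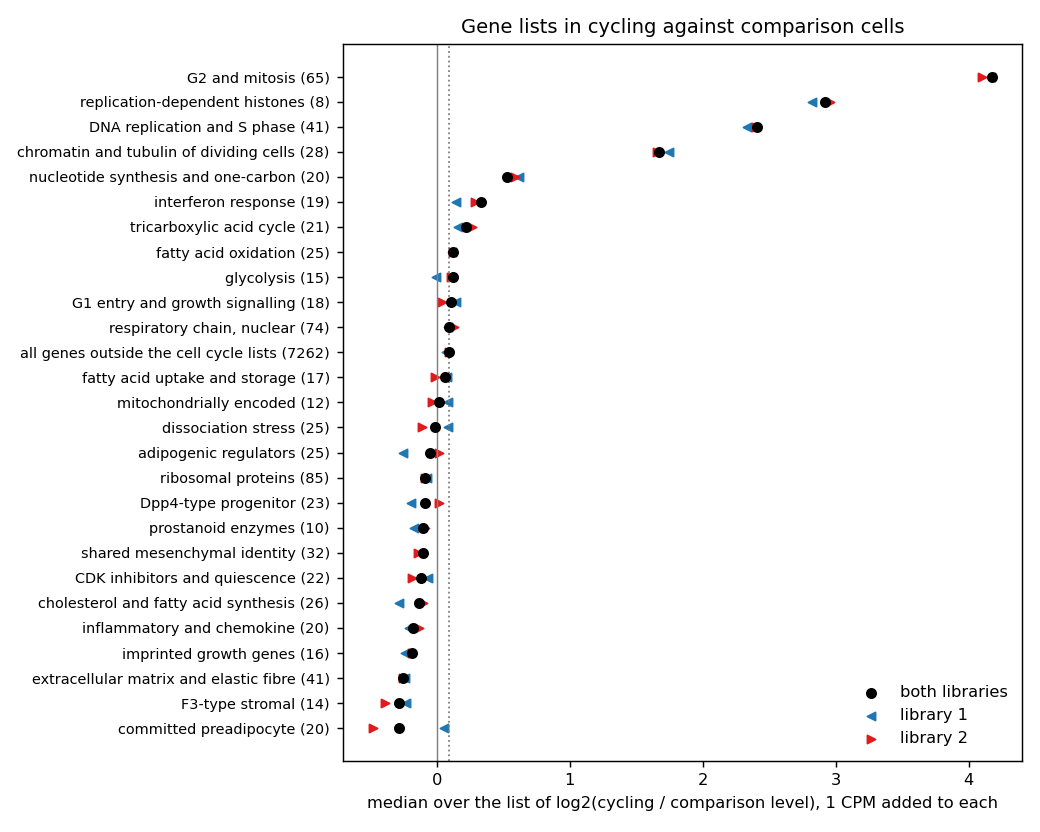
Median log2 ratio of cycling to comparison cells (horizontal axis) for each gene list with 8 or more measured genes (number in brackets), over both libraries (circles) and in library 1 and library 2 (triangles); the dotted line marks the median of all genes outside the cell cycle lists. Cycle lists stand at 1.67 or more, nucleotide synthesis at 0.53, and identity and matrix lists below 0 over both libraries; the committed list in library 1 and the Dpp4-type and adipogenic lists in library 2 are just above 0.

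Precursor identity genes were for the most part kept. The 4 identity lists hold 99 genes, of which 89 reached 10 CPM in at least 1 of the sums. Of these 89, 65 were kept, 1 was higher (Sdc1), 2 were lower (Mgp and C2) and 21 were mixed. Sdc1 reached 10 CPM in cycling cells alone. Outside the cell cycle lists 71.5% of 7262 genes were kept, 8.62% higher and 1.29% lower, so the share kept over the 4 lists together is near the background. Genes with at least 50 CPM have smaller counting error: 54 of 63 such identity genes and 82.3% of all such genes were kept. The median of the 89 genes was -0.12, against 0.09 over genes outside the cycle lists.

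The lists differed among themselves. Shared mesenchymal genes were kept in 31 of 32 cases, with a median of -0.10, and Dpp4-type progenitor genes in 21 of 23, with a median of -0.09. Committed preadipocyte genes were kept in 7 of 20, with 12 mixed and a median of -0.28. F3-type stromal genes were kept in 6 of 14, with 2 lower, 6 mixed and a median of -0.28. Few F3-type genes are abundant, and at 50 CPM or more 3 of 4 were kept. At that level 26 of 26 shared mesenchymal, 19 of 20 Dpp4-type and 6 of 13 committed genes were kept, beside 82.3% of all genes. No gene of the 4 lists was lower there. All 4 medians were negative also with TMM scaling, between -0.22 and -0.42, and with the cycle genes left out of the total, between -0.06 and -0.26. The libraries differ in sign for the committed list, 0.05 in library 1 and -0.48 in library 2, and for the Dpp4-type list, -0.20 and 0.02. With comparison cells weighted to the depth of the cycling cells, the committed median was 0.07 and 15 of its 20 genes were kept. The Dpp4-type median was then -0.22, below the committed one, with 20 of 24 measured genes kept and 2 lower. Among members with 5 or more gate UMIs, 17 of 23 Dpp4-type genes were kept and 2 were lower.

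**Figure D3:**
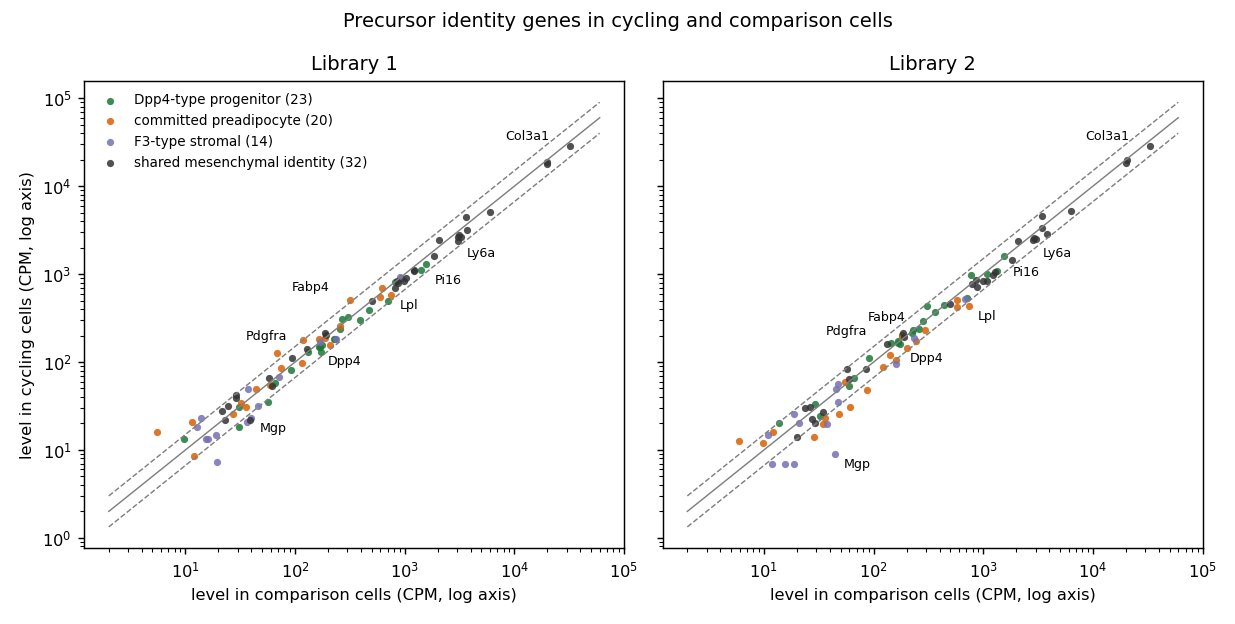
Level of each measured identity gene in cycling cells (vertical log axis, CPM) against comparison cells (horizontal log axis, CPM) in each library, coloured by list, with the line of equality and dashed lines at 1.5-fold. Nearly all shared mesenchymal and Dpp4-type genes lie between the dashed lines in both panels, while committed and F3-type genes scatter beyond them more often, at low levels and also for abundant genes such as Lpl in library 2 and Fabp4 in library 1.

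Among shared mesenchymal genes, Pdgfra, the platelet-derived growth factor receptor that defines these precursors (chr5:75152292-75198215 in GRCm38), was at 140 and 159 CPM in cycling cells of libraries 1 and 2 and at 130 and 134 CPM in comparison cells. Both cycling sums were above both comparison sums, by 1.15-fold overall (1.03 to 1.29). Cd34, the sialomucin used in sorting precursors, was at 698 and 847 CPM against 814 and 856. Ly6a, which encodes the Sca-1 antigen, was at 2370 and 2413 CPM against 3050 and 2861, lower in both libraries and within 1.5-fold.

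The fibrillar collagen gene Col3a1 stood at 28734 and 28715 CPM in cycling cells and 32140 and 33279 CPM in comparison cells, and Col1a1 at 18034 and 18510.2 CPM against 19799 and 19952. The proteoglycan gene Dcn was at 5145 and 5177 CPM against 6041 and 6287. All 3 matrix genes were thus kept, each a little lower in both libraries. Patterning factors of the trunk mesenchyme were kept as well: Prrx1 was at 202 and 214 CPM against 192 and 187, and Osr1 at 53.5 and 64.1 CPM against 61.8 and 60.2. The 1 mixed member was En1, at 21.9 and 27.2 CPM against 39.1 and 34.2. Twist1, a mesenchymal bHLH factor, and Lgals1, which encodes galectin-1, had the largest positive log2 ratios of the list, 0.42 and 0.38.

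Without depth weighting, most Dpp4-type genes lay within 1.5-fold between the 2 kinds of cells. Pi16, a secreted peptidase inhibitor and the most abundant of them (chr17:29317680-29330593), was at 1308 and 1614 CPM in cycling cells and at 1566 and 1534 CPM in comparison cells, 0.970-fold overall (0.937 to 1.0). Dpp4, the surface dipeptidyl peptidase (chr2:62330073-62412231), was at 147 and 162 CPM against 165 and 175. Wnt2, a Wnt ligand of these progenitors, was at 129 and 165 CPM against 133 and 144, and the complement regulator Cd55 at 157 and 203 CPM against 176 and 181.

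In Pi16, Wnt2 and Cd55 library 2 was above its comparison cells and library 1 below. Igfbp5, an insulin-like growth factor binding protein, had the largest negative ratio of the list at 50 CPM or more, with 494 and 529 CPM against 704 and 705. It stayed within 1.5-fold, but its log2 ratio was -0.78 among members with 5 or more gate UMIs and -0.73 with depth-weighted comparison cells, past 1.5-fold in both libraries. Krtdap, a secreted epidermal-type gene of these progenitors, was on the other side, at 327 and 435 CPM against 305 and 306. The Krtdap log2 ratio was 0.37, and -0.06 with depth-weighted comparison cells. The mixed members were Limch1 and Procr.

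Committed genes split by library. Lpl, the lipase that frees fatty acids from lipoproteins, was at 580 and 435 CPM in cycling cells and 749 and 744 CPM in comparison cells, a fold of 0.653 (0.615 to 0.694), with library 2 past 1.5-fold and library 1 not. Icam1, the adhesion molecule that marks committed cells, was at 157 and 145 CPM against 209 and 201, and was kept. With depth-weighted comparison cells the log2 ratio of Lpl went from -0.61 to -0.36 and that of Icam1 from -0.45 to -0.09. Fabp4, the fatty acid binding protein of adipocytes, was at 504 CPM in library 1 and 232 in library 2, against 317 and 295.

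Fabp4 in cycling cells was thus above its comparison in library 1 and below it in library 2, and the same held for Col15a1, a basement membrane collagen, at 180 and 120 CPM against 118 and 142. Pparg, the master factor of adipogenesis, was low in all sums, at 20.7 and 11.8 CPM against 11.5 and 9.85. Dlk1, the preadipocyte inhibitor of differentiation, was at 701 and 423 CPM against 625 and 576. The Dlk1 log2 ratio was -0.19, and 0.22 with depth-weighted comparison cells. Sdc1, a heparan sulfate proteoglycan, was the 1 higher gene, at 15.8 and 12.5 CPM against 5.47 and 5.94, a fold of 2.40 (1.60 to 3.49). Sdc1 reached 10 CPM in cycling cells alone, so it was measured only through the cells where it is high.

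F3-type genes summed to 1580 CPM in cycling cells and 1653 in comparison cells of library 1, and to 1067 and 1411 CPM in library 2. F3 itself, the tissue factor gene, was kept at 31.6 and 35.5 CPM against 45.9 and 47.3, lower in both libraries. Mgp, an inhibitor of calcification, was at 23.1 and 9.05 CPM against 39.5 and 44.4, a fold of 0.337 (0.230 to 0.477), and the complement gene C2 at 20.7 and 19.5 CPM against 36.2 and 37.7. With depth-weighted comparison cells neither Mgp nor C2 was past 1.5-fold in both libraries, and no gene of the list was lower. Bgn and Igfbp3, its most abundant members, were kept, at 933 and 526 CPM and at 182 and 186 CPM in cycling cells, against 908 and 680 and against 234 and 235.

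Precursor transcripts were also found in cells with several endothelial or macrophage UMIs, which limits what a level or a share of cells can show. In 51 cells with 5 or more UMIs of Cdh5 and Cldn5, an endothelial reference with a median of 20418 UMIs, and in 28 cells with 5 or more of C1qa and C1qb, a macrophage reference with a median of 9880 UMIs, precursor transcripts were common. Whether they are free RNA, doublets or precursors with a few endothelial or macrophage UMIs was not tested. Col3a1 was found in 100% of both references, and Pi16 stood at 558 CPM in the endothelial and 999.7 in the macrophage reference. With each cell thinned to 6900 UMIs, Pdgfra was found in 57.0% of 135 cycling cells (48.2 to 65.5), 57.9% of 3637 comparison cells, 22.7% of 44 endothelial and 61.1% of 18 macrophage reference cells. Without thinning the shares were 79.9%, 73.4%, 37.3% and 57.1%. Before thinning, where depth differs as well, the share of cycling cells with Pdgfra was above both references. After thinning it was above the endothelial reference alone. The macrophage share rests on 18 cells, with an interval of 35.7 to 82.7. In level, Pdgfra was at 152 CPM in cycling cells, 86.2 in the macrophage and 30.7 in the endothelial reference. Thinning left out 9 cycling and 477 comparison cells.

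For Dpp4 the thinned shares were 60.7% in cycling, 58.8% in comparison, 27.3% in endothelial and 50% in macrophage reference cells, and without thinning 75.0%, 71.4%, 37.3% and 50%. For Wnt2 the thinned shares were 53.3%, 49.7%, 11.4% and 33.3%, and without thinning 70.1%, 61.6%, 47.1% and 42.9%. Shared mesenchymal genes in cycling cells were at least 1.5-fold above both references in 16 of 32 cases, Dpp4-type genes in 9 of 23, committed genes in 4 of 20 and F3-type genes in 3 of 14. Levels of the other genes in these lists were not set apart from both references by this measure. Endothelial cells make Fabp4 and Cd36 themselves, so that reference is high for part of the committed list.

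Per cell, the share of UMIs from shared mesenchymal genes was 10.3% at the median of cycling cells, 6.72% at their 10th percentile and 2.59% at the lowest. It was 10.9% at the median of comparison cells, 3.02% in the endothelial and 6.63% in the macrophage reference. Dpp4-type genes made 0.808% of UMIs at the median of cycling cells, 0.772% in comparison cells, 0.392% in the endothelial and 0.375% in the macrophage reference. For these lists the median of cycling cells lay above both reference medians, with single cells below them. For the committed list it did not, at 0.221% in cycling cells, 0.280% in comparison cells, 0.269% in the macrophage and 2.99% in the endothelial reference. F3-type genes made 0.105% of UMIs in cycling and 0.124% in comparison cells, 0.0835% in the macrophage and 0.109% in the endothelial reference.

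Some cycling cells carried another identity. The antigen presentation genes Cd74, H2-Aa and H2-Ab1 were among the higher genes, with Cd74, the invariant chain, at 209 and 180 CPM against 1.94 and 2.54. Of the 430 Cd74 UMIs, 426 lay in 3 cells, 2 of library 1 and 1 of library 2. These 3 cells had 252, 80 and 517 UMIs of the antigen presentation genes, and only 1.98%, 2.97% and 1.94% of their UMIs came from 5 matrix genes (Col1a1, Col1a2, Col3a1, Dcn and Sparc), against a median of 9.03% in all cycling cells. Those 3 and 2 more, all with under 3% matrix UMIs, were left out together with 24 comparison cells in an alternative chosen after seeing the data. Cd74 was then at a log2 ratio of -0.13, H2-Aa at -0.89 and H2-Ab1 at 0.11, while 64 of the 89 identity genes were kept, 1 was higher and 2 were lower.

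Macrophage or monocyte markers summed to 274 and 214 CPM in cycling cells of libraries 1 and 2 and to 25.7 and 25.6 CPM in comparison cells. Of these 10 markers 7 had a UMI in cycling cells, and Adgre1 was at 0, with C1qa and C1qb absent by the rule. Endothelial markers summed to 101 and 90.5 CPM against 117 and 106, mural markers to 37.7 and 32.0 against 28.3 and 29.3, and Schwann markers to 43.8 and 37.6 against 31.3 and 131. Adipocyte markers summed to 60.8 and 16 CPM against 5.83 and 22.1, with Adipoq, Cidec and Lep at 0, and lymphocyte markers to 19.5 and 1.39 CPM against 1.46 and 1.37. All 6 epithelial markers and the muscle stem cell genes Myf5 and Pax7 were at 0 in cycling cells. Erythroid markers summed to 865 and 22.3 CPM against 4107 and 21.2, so haemoglobin RNA moved with library 1, where 16 of the 24 comparison cells left out above also lay. Doublets were not called, and the part of doublets in these values was not tested. Cells with at least 4 UMIs of Xist and a UMI of a Y-linked gene were 11.8% of cycling and 6.51% of comparison cells, and 5.93% (2.59 to 11.3) and 3.52% after thinning.

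Cycling cells were also placed by which phase list gave them more UMIs. A total of 91 had more UMIs of 59 G2 and mitosis genes than of 37 S phase genes, 48 had the reverse and 5 were equal, of which 3 had none of either. Since 15 cells differed by at most 1 UMI, and the lists are not equal in size, this is a range and not a phase call. Pcna, the replication clamp, was at 260 CPM in the group with more S phase UMIs and 110 in the other, and Mcm6, of the replicative helicase, at 96.8 and 36.4 CPM. Cdc20, the activator of the anaphase-promoting complex, was at 6.82 and 174 CPM in the same order, and Ccnb1 at 4.09 and 122. These genes are among those that made the split. The histone gene Hist1h2ap did not follow the S phase genes, at 271 CPM (235 to 312) with more S phase UMIs and 746 CPM (702 to 791) with more G2 and mitosis UMIs, and the median of 8 histone genes against comparison cells was 1.95 and 3.26 in the same order.

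Pi16 and Dpp4 were near equal between the 2 groups, and Pdgfra, Lpl and Dlk1 were not. Pi16 was at 1515 CPM (1427 to 1606) with more S phase UMIs and 1431 CPM (1370 to 1494) with more G2 and mitosis UMIs, and Dpp4 at 158 and 157 CPM. Pdgfra was at 117 CPM (93.8 to 145) and 173 CPM (152 to 195), higher in the second group in both libraries, at 108 and 124 CPM against 161 and 179. Lpl went the other way, at 566 CPM (513 to 623) and 447 CPM (414 to 483), and so did Dlk1, at 661 and 469 CPM, each in both libraries. Against comparison cells the median of the shared mesenchymal list was -0.17 and -0.15 in the 2 groups, and that of the Dpp4-type list -0.00 and -0.15.

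**Figure D4:**
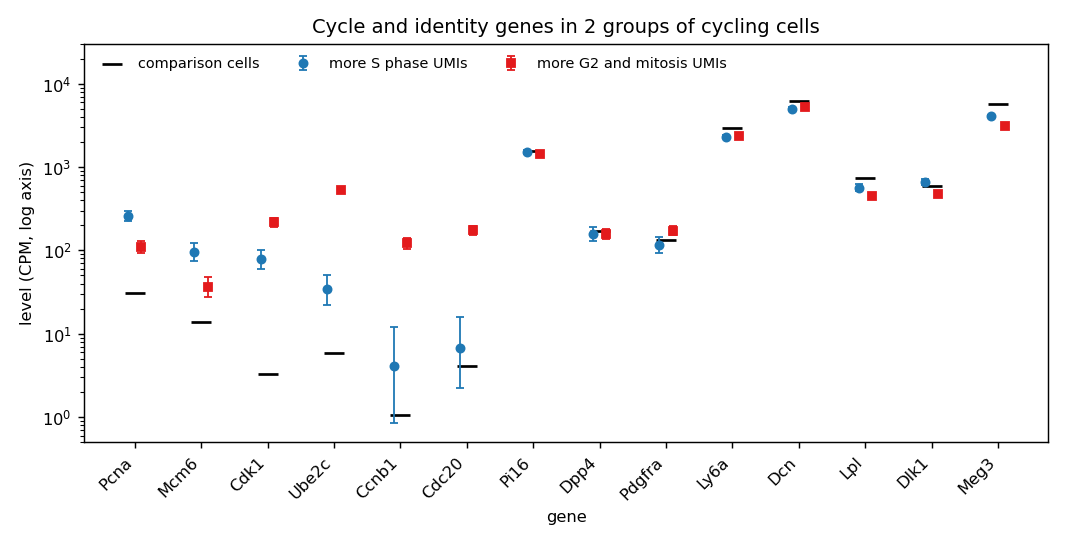
Level (log axis, CPM) of 6 cycle and 8 identity genes in cycling cells with more S phase UMIs (circles, 48 cells) and with more G2 and mitosis UMIs (squares, 91 cells), with exact 95% counting intervals, and in comparison cells (dashes). Pcna to Cdc20 separate the groups, while Pi16, Dpp4, Ly6a and Dcn differ little between them.

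List medians were also taken by bin of the gate. Among the 58 members with 2 or 3 gate UMIs the median ratio was -0.09 for shared mesenchymal and 0.06 for Dpp4-type genes, and among the 57 with 10 or more it was -0.15 and -0.23. From the first of these bins to the last, the committed median went from -0.27 to -0.30, the F3-type median from -0.24 to -0.35, the extracellular matrix median from -0.18 to -0.32 and that of adipogenic regulators from -0.27 to 0.19. In the 29 members with 4 to 9, the medians were -0.07 for committed, -0.41 for F3-type and -0.22 for shared mesenchymal genes. Those of Dpp4-type, extracellular matrix and adipogenic genes were 0.03, -0.29 and -0.18 there. The committed, F3-type and shared mesenchymal medians therefore did not move in 1 direction. Pi16 was at 1697 CPM in the members with 2 UMIs, 1493 with 4 to 9 and 1371 with 10 or more. Pdgfra was at 144, 104 and 179 CPM in the same bins. The median depth of these bins rose, from 13089.5 to 16993 and 17911 UMIs. Library 1 gave 24 of 40, 8 of 29 and 19 of 57 of their cells. The part of depth and library in the values and list medians by bin was not tested. Cells with 1 gate UMI, outside the definition, had medians of 0.01 for shared mesenchymal and 0.03 for Dpp4-type genes.

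Cycling cells lay along the whole range from progenitor to committed. A score per thinned cell, the mean log level of the Dpp4-type list minus that of the committed list, was cut at the tertiles of the comparison cells of each library. Of 135 scored cycling cells, 54 (40.0%, 31.7 to 48.8) were in the progenitor tertile, 42 (31.1%) in the middle and 39 (28.9%, 21.4 to 37.3) in the committed tertile. By library the progenitor tertile held 16 of 49 (32.7%, 19.9 to 47.5) and 38 of 86 (44.2%, 33.5 to 55.3), and the committed tertile 18 (36.7%, 23.4 to 51.7) and 21 (24.4%, 15.8 to 34.9). The intervals of the libraries overlap. The score is a range and not a type, and 23 of the 135 cells lay within 0.1 SD of a boundary.

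**Figure D5:**
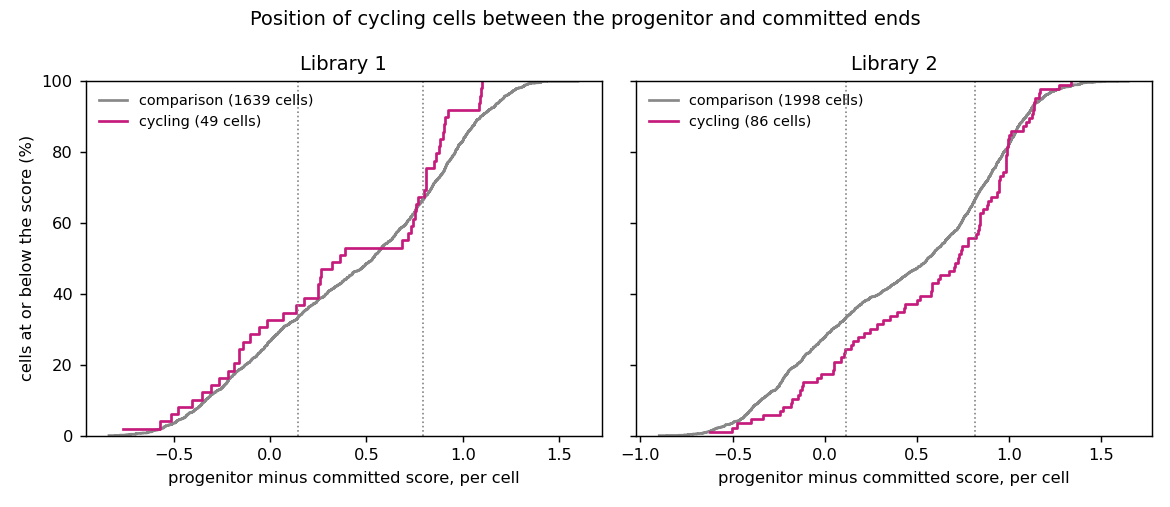
Cumulative share of cells (%, vertical axis) by the progenitor minus committed score (horizontal axis, mean log units) for cycling and comparison cells of each library, with dotted lines at the tertiles of comparison cells. Cycling cells span both ends in both libraries, and in library 2 their curve lies to the right of the comparison curve over the middle of the range.

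At each end, cycling and comparison cells were set side by side. At the progenitor end Pi16 was at 2250 CPM (2154 to 2349) in cycling and 2495 in comparison cells, and at the committed end at 536 CPM (479 to 599) and 581. Fabp4 was at 129 CPM (107 to 155) and 139 at the progenitor end, and at 797 CPM (727 to 873) and 621 at the committed end. These genes entered the score. Among genes that did not, Pdgfra was at 113 CPM (92.3 to 137) and 101 at the progenitor end and at 187 CPM (153 to 225) and 166 at the committed end, and Cebpb, an early adipogenic factor, at 162 and 191 and at 261 and 449 CPM. Meg3, a long noncoding RNA, was at 3496 and 5456 CPM at the progenitor end and 3714 and 6021 at the committed end, and Eln, which encodes elastin, at 552 and 672 and at 602 and 1029 CPM. Within the committed end Cebpb, Eln and Meg3 differed more between cycling and comparison cells than cycling cells did between the ends. Pdgfra, Mfap4 and Ly6a went the other way. Mfap4 was at 319 and 695 CPM at the committed end, and at 124 CPM in cycling cells at the progenitor end. Depth was not matched here. Over all cells the Cebpb log2 ratio was -0.35, and -0.04 with depth-weighted comparison cells. The shared mesenchymal median was -0.09 at the progenitor end and -0.16 at the committed end, and that of adipogenic regulators 0.01 and 0.07.

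Adipogenic regulators were kept in 21 of 25 cases, none was higher or lower and 4 were mixed, with a median of -0.05. Outside the cycle lists 71.5% of all genes were kept, and 82.3% of all genes at 50 CPM or more. Ebf1, a factor that sets adipocyte fate, was at 702 and 800 CPM in cycling cells and 768 and 763 in comparison cells. Cebpb was at 223 and 241 CPM against 301 and 296, and the Krüppel-like factor Klf4 at 707 and 922 CPM against 844 and 1045. Id2, an inhibitor of bHLH factors, was at 105 and 102 CPM against 75.2 and 71.7, above in both libraries. With TMM scaling 3 of the 25 were lower.

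Inhibitors of cyclin-dependent kinases and genes of quiescence, taken as 1 list, did not move as a group. Of 22 measured genes of this joint list 3 were higher, 1 lower, 14 kept and 4 mixed. Outside the cycle lists 71.5% of genes were kept. Cdkn2c, which encodes the Cdk4 and Cdk6 inhibitor p18, was at 131 and 124 CPM against 4.72 and 6.72, a fold of 21.9 (18.5 to 25.9). Cdkn2d, which encodes p19, was at 103 and 102 CPM against 24.3 and 22.5.

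Cdkn1c, which encodes p57 and is imprinted, was kept at 315 and 391 CPM against 441 and 443. Cdkn1a, which encodes p21, was at 207 and 276 CPM against 142 and 163, past 1.5-fold in library 2 alone. Among G1 genes Cdk4 was at 246 and 292 CPM against 164 and 165, and Ccnd2, a D-type cyclin, at 140 and 123 CPM against 187 and 195. Both were mixed, in opposite directions.

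Matrix genes leaned low. Of 41 measured extracellular matrix genes 39 had a ratio below 0, with a median of -0.25. Of the 41, 35 were kept, 3 lower and 3 mixed, beside 71.5% kept and 1.29% lower among all genes outside the cycle lists. At 50 CPM or more 32 of 35 were kept and 1 was lower, beside 82.3% and 0.542% of all such genes. With TMM scaling 8 of the 41 were lower. Mfap4, a microfibril protein, was at 315 and 150 CPM in cycling cells and 478 and 298 in comparison cells, and Eln, which encodes elastin, at 1072 and 508 CPM against 1466 and 928. Both libraries were lower for both genes, and the levels differ between the libraries in both kinds of cells. The log2 ratio of Mfap4 was -0.86, and its call was lost at -0.85 without the cells of other types, at -0.84 without the cycle genes in the total and at -0.68 without the deepest cells, so that in the first 2 of these the ratio hardly moved. Fn1, fibronectin, and Fbn1, fibrillin-1, were kept, at 2560 and 2978 CPM against 3025 and 3352 and at 1811 and 1897 CPM against 2105 and 1987.

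Imprinted growth genes were kept in 14 of 16 cases, with 1 lower and 1 mixed, beside 71.5% kept among all genes outside the cycle lists. At 50 CPM or more 12 of 14 were kept, near the 82.3% of all such genes, and 1 was lower. The lower gene was Meg3, a maternally expressed long noncoding RNA (chr12:109541001-109571726), at 3755 and 3340 CPM in cycling cells and 5843 and 5626 in comparison cells, a fold of 0.610 (0.596 to 0.623). In gate bins, which differ in depth and library mix, it was at 4399 CPM with 2 UMIs and 3016 with 3. It was at 3594 CPM with 4 to 9 and 3081 with 10 or more. It was at 4115 CPM with more S phase UMIs and 3125 with more G2 and mitosis UMIs. With depth-weighted comparison cells its log2 ratio was -0.62 and not past 1.5-fold in both libraries. H19 and Igf2, neighbours in an imprinted cluster, were kept, at 4406 and 3843 CPM against 4870 and 4382 and at 968 and 979 CPM against 1312 and 1205.

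Metabolic lists differed in how far they moved. Among all genes outside the cycle lists 8.62% were higher, 1.29% lower and 71.5% kept. Nucleotide synthesis and one-carbon genes had 7 higher, 0 lower, 6 kept and 7 mixed of 20, with a median of 0.53 and no gene below 0, and with TMM scaling 4 of 19 were higher. Dctpp1, which cleans the pool of dCTP, was at 97.3 and 122 CPM against 27.2 and 26.8, and Mthfd2, the mitochondrial folate enzyme, at 43.8 and 62.7 CPM against 20.9 and 27.5. Tricarboxylic acid cycle genes had 2 higher and 16 kept of 21, with Idh2 at 181 and 174 CPM against 97.5 and 98.1.

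Fatty acid oxidation genes were kept in 20 of 25 cases with none higher or lower, not far from the 71.5% kept outside the cycle lists. Fabp5, a fatty acid binding protein of many dividing cells, was at 127 and 125 CPM against 69.3 and 68.8, and with depth-weighted comparison cells its log2 ratio was 0.58 and the call was lost. In glycolysis Aldoa was lower, at 155 and 176 CPM against 303 and 306, while Tpi1 was at 151 and 150 CPM against 102 and 104. Nuclear genes of the respiratory chain were kept in 70 of 74 cases, ribosomal protein genes in 84 of 85 and mitochondrially encoded genes in 12 of 12. At 50 CPM or more 68 of 69, 81 of 81 and 12 of 12 were kept, in that order, beside 82.3% of all genes.

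Stress genes were kept in a larger share than the 71.5% of all genes outside the cycle lists, and inflammatory and prostanoid genes in a share near it. At 50 CPM or more 20 of 20 stress, 9 of 11 inflammatory and 4 of 5 prostanoid genes were kept (82.3% of all genes). Of 25 dissociation stress genes 24 were kept and 1 was mixed, and the immediate early gene Fos was at 1388 and 1062 CPM against 1430 and 1277. Of 20 inflammatory and chemokine genes 14 were kept, 1 was lower and 5 were mixed, and Cxcl12, the chemokine of stromal niches, was at 273 and 263 CPM against 395 and 410. The Cxcl12 log2 ratio was -0.59, and -0.19 with depth-weighted comparison cells. Interferon response genes had 3 higher, 1 lower, 9 kept and 6 mixed of 19. Psmb8, an immunoproteasome subunit, was at 54.7 and 62.0 CPM against 28.6 and 34.3, and its call was lost, at a log2 ratio of 0.71, without the cells of other types. Prostanoid enzymes were kept in 7 of 10 cases and mixed in 3.

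Among the genes with at least 50 CPM outside the cycle lists that were lower, Fgl2, a fibrinogen-like protein, was at 60.8 and 92.6 CPM against 137 and 170, Gabarapl1, an autophagy gene, at 43.8 and 52.9 CPM against 84.7 and 92.7, and Opcml, a cell adhesion molecule, at 62.0 and 81.5 CPM against 123 and 142. Only 14 of 2583 genes at that level were lower (0.542%) and 249 were higher (9.64%). The calls of Fgl2, Tgfbi, Smpdl3a and Tnfsf12 were lost with depth-weighted comparison cells, at log2 ratios of -0.60, -0.60, -0.70 and -0.69.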

How the data were processed

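The authors deposited 1 matrix of UMI counts, 27998 gene rows by 6905 barcodes, with values not normalized; Cell Ranger (version not given in the sources used here), Seurat 3.0.1 and build mm10 are named per the submitters' processing notes. The 2 libraries hold 3321 and 3584 barcodes and 42092816 and 43491307 UMIs. The 56 symbols with several rows were summed.

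From these counts, UMIs were summed per library over cycling and over comparison cells and divided by the total of each sum (CPM). Log2 ratios have 1 CPM added. Calls needed 10 CPM in a sum and 1.5-fold in both libraries. Intervals are exact at 95% (Poisson for CPM, conditional for folds, Clopper-Pearson for shares). Work was done in Python 3.11.15 with numpy 2.4.6, scipy 1.17.1 and pandas 2.3.3, and TMM factors came from edgeR 4.0.16 in R 4.3.3, with no model fitted, since each condition has 1 sample. The fold and call functions were tested on simulated Poisson sums drawn from a single profile. The simulation had no spread between cells or libraries, so it does not cover calls made by a few cells. Cells were thinned to 6900 UMIs, the 10th percentile, with a fixed seed, and shallower cells were left out of thinned values. No doublet caller was run, so doublets remain.

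The score per cell was the mean of ln(1 + UMIs per 10000) over the progenitor list minus that over the committed list. Named genes are the markers, up to 4 members of each list with the largest ratio at 50 CPM or more and up to 4 kept members with the highest level, and up to 10 genes in each direction outside the cycle lists. Further genes given as exceptions or examples were picked with their values in view. The members and lists were chosen with earlier results of these data known. Knl1, Cd29, Rian and Trac were not found by symbol. Promoters come from RefSeq on GRCm38.p6 and gene coordinates from GENCODE on GRCm38. Alternatives changed the scaling, level minimum, fold, gate, depth weighting, deepest cells, tertile weighting and cells of other types.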

Additional observations from a re-analysis of the deposited data

Results flagged for a closer look

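Cells set aside by the rule held cycling transcripts too. Among 1672 filtered cells with a UMI of Cdh5, Cldn5, C1qa or C1qb, 71 had 2 or more UMIs of Mki67 and Top2a, or 4.25% (3.33 to 5.33). By library they were 31 of 948 (3.27%) and 40 of 724 (5.52%). These 71 cells had a median of 16923 UMIs, and all 1672 had 13310. In 51 of the 71 the 4 genes came to 1 UMI in all, 9 had 5 or more UMIs of Cdh5 and Cldn5, and 0 had 5 or more of C1qa and C1qb. The signal was noted because these cells enter no comparison above, and with them kept the share of cycling cells was 3.12%.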

How the results depend on the processing

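The share of cycling cells, 2.76% as reported, was 10.4% with a minimum of 1 gate UMI, 1.57% with 5, 2.07% after thinning and 2.0% without cells above the 95th percentile of UMIs. Genes higher numbered 249 at a minimum of 50 CPM, 1263 with no minimum and 427 at 2-fold. Genes lower numbered 205 with TMM scaling, 14 at 50 CPM, 203 with no minimum, 204 with 5 gate UMIs and 6 at 2-fold. The F3-type median was -0.42 with TMM, -0.41 with 5 gate UMIs and -0.15 with depth weighting. The shared mesenchymal median was -0.24 with TMM, -0.076 without cycle genes in the total, -0.19 with 5 gate UMIs, -0.13 with depth weighting, -0.13 without the deepest cells, -0.13 with tertile weighting, -0.073 without other cell types and -0.14 in library 2 alone. It stayed below 0 in all of these, and the spread between the libraries it was set against is small. The Dpp4-type median was -0.22 with depth weighting and 0.02 in library 2 alone. Without other cell types Cd74 was at -0.13 and H2-Aa at -0.89. The progenitor tertile held between 34.2% and 41.2% of cycling cells and the committed tertile between 27.4% and 35.2%. The cause of these shifts was not tested. No paired analysis was possible because each condition has 1 sample and no label ties a library to a condition. Depth limits genes under 10 CPM, and 144 cells from 2 libraries give no replicate error.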

Other observations

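Cholesterol and fatty acid synthesis genes in cycling cells had 2 higher, 1 lower, 14 kept and 9 mixed of 26, with a median log2 ratio of -0.13. Hmgcs1, an early enzyme of the pathway, had a ratio of -0.52 and was mixed. In the respiratory chain Cox7a2, a subunit of cytochrome c oxidase, was at 461 and 469 CPM in cycling cells and 295 and 310 CPM in comparison cells, above 1.5-fold in both libraries. Among prostanoid genes Ptgs2, the inducible cyclooxygenase, had a ratio of -0.39 and was kept.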
